A study of Mus musculus with 15 samples.

Results

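Metallothioneins and zinc transporters were examined in cecal RNA as a set of 6 genes, named by their symbols alone: Mt1, Mt2, Slc39a4, Slc39a5, Slc30a1 and Slc30a10. They are 6 of the 45804 genes in the expression table, and all 6 passed the filter on low values. The mice were male C57BL/6 animals, given as 20 weeks old by the sample labels. The study text gives an age at the start of treatment that would not reach 20 weeks by the end of its 30 days. Antibiotic-induced microbiome depletion (AIMD) was made in 7 of them by gavage of 4 antibacterial drugs (vancomycin, metronidazole, ampicillin and neomycin) with the antifungal amphotericin B, and 8 vehicle-treated mice had water by gavage instead. In both groups the gavage was given more often than daily. The paper reports that giving all the antibiotics only daily did not deplete the microbiome. All 15 ceca were taken after 30 days, and no mouse carried a transgene or deletion according to the labels.

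Metallothioneins are small, cysteine-rich proteins that bind zinc and copper in the cytosol. Transporters of the ZIP family (Slc39a genes) bring zinc into the cytosol, from outside the cell or from organelles, and those of the ZnT family (Slc30a genes) move it out of the cytosol. The zinc-sensing factor MTF1 binds metal response elements and raises the transcription of metallothioneins and of Slc30a1, and glucocorticoids also induce Mt1 and Mt2.

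The promoters of Mt1, Mt2 and Slc30a1 are printed because these genes are the textbook targets of MTF1 and because Mt1 and Mt2 moved together among the mice described here. Each window holds 300 bases of RefSeq sequence on GRCm38.p6, from 250 bases before the RefSeq start site to 50 bases after it, read 5′ to 3′ on the plus strand, which is the coding strand of all 3 genes. They are chr8:94178839-94179138 for Mt1, chr8:94172368-94172667 for Mt2 and chr1:191906531-191906830 for Slc30a1. Capitals mark the core of a metal response element, TGCACNC or TGCGCNC, on either strand, where N is any base.
Mt1: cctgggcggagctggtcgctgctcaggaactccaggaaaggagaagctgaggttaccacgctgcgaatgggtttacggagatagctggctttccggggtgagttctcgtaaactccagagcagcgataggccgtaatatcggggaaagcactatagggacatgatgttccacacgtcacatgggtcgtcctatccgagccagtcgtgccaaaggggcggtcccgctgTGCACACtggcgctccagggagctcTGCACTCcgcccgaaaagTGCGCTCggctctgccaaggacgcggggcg
Mt2: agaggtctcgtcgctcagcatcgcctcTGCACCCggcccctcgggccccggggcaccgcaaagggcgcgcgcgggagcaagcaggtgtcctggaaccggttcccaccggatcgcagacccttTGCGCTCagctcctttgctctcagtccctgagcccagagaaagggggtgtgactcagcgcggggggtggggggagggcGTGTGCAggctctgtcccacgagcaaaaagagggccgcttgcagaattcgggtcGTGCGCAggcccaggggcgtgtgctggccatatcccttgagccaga
Slc30a1: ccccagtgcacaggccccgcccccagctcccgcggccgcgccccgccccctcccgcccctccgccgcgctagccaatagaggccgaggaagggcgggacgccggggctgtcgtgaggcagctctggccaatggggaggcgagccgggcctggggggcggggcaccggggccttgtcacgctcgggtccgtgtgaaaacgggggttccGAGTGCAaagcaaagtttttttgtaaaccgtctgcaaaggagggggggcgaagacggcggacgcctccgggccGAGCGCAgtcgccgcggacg

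The core occurred 3 times in the Mt1 window, 4 times in that of Mt2 and 2 times in that of Slc30a1. Counted from the RefSeq start site, the cores began at -23, 2 and 20 in Mt1. They began at -223, -128, -50 and 4 in Mt2, and at -43 and 30 in Slc30a1. Each of the 3 windows thus held matches after the start site as well as before it. Slc30a10 had 3 matches, of which 2 overlapped, and the 2 windows listed for Slc39a5 had 0 and 1. Among all 32851 promoter windows of this length, 25.7% held at least 1 core, 7.11% at least 2, 1.97% at least 3 and 0.517% at least 4. A window was found for 5 of the 6 genes, the exception being Slc39a4. These matches describe letters and were not tested for binding.

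The libraries differed in ways that touch these genes. Reads were recovered from the deposited FPKM, the reads of a gene relative to its length and to a divisor for each library. That divisor was not the read total, as in vehicle replicate 5, with 5162135 beside 6486317 reads. There were between 8679673 and 18108581 reads per AIMD mouse and between 4372415 and 14405947 per vehicle-treated mouse. AIMD mice had the larger depth (two-sided exact permutation test, p = 0.0345) and a smaller share of reads on mitochondrial genes, 4.28% to 10.9% against 6.92% to 26.2% (exact permutation p = 0.0028). The marker counts that follow stand beside 19.4% of all tested genes called higher and 16.6% called lower. Of 8 epithelial markers, 2 rose and 1 fell, and their summed FPKM was 4351 to 6839 in AIMD mice and 3714 to 5596 in vehicle-treated mice, so the labelled tissue had its epithelium in every library. Of 7 smooth muscle markers, 1 fell (Tagln), with sums of 212 to 808 and 514 to 3006. Of 4 neuronal and glial markers that were tested, 3 fell. Higher in AIMD mice were 2 of 7 immune markers (Lyz2 and Csf1r, summed list 56.1 to 230.4 against 39.5 to 81.4), 2 of 5 tested Paneth cell markers (Ang4 and Mmp7, summed list 17.8 to 54.5 against 7.77 to 38.4) and 2 of 4 tested markers of small intestinal enterocytes (summed list 147 to 258 against 66.5 to 212). The other tested markers of these lists were not called. Log2 fold changes were above 0 in 4 of 7 immune markers, with Cd79a and Ms4a1 at -0.71 and Ptprc at -0.32. They were above 0 in 4 of 5 tested Paneth cell markers, with Itln1 at -1.16, and in all 4 tested enterocyte markers. In AIMD mice, Lyz2 averaged 112 FPKM beside 125 for the immune sum, and Rbp2 163 beside 219 for the enterocyte sum. The part of these shifts in the values of the 6 genes was not tested. Vehicle replicate 8 stood apart, with the fewest reads, the highest smooth muscle sum of all mice (3006, against 1366 in the next mouse) and the highest neuronal and glial sum (56.7, against 18.4). Results are therefore also given without it where it moves them. In RNA from whole tissue, fewer cells of a type and less RNA per cell cannot be told apart.

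None of the 6 genes passed the threshold of 0.05 on the Benjamini-Hochberg adjusted p from limma, fitted over 11971 genes on log2(FPKM + 0.5). Of all genes tested, 36.0% passed it, 19.4% higher and 16.6% lower in AIMD mice. The median log2 fold change of the 6 was 0.06, beside 0.01 over all tested genes. For none of the 6 did the groups separate without overlap, which happened for 8.56% of all tested genes. At an unadjusted p under 0.05 there was 1 gene, Mt2, whose adjusted p of 0.0808 was the lowest of the set, and limma voom on recovered reads and an exact rank-sum test called 0. The plot of FPKM by mouse shows the overlap.

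**Figure D1:**
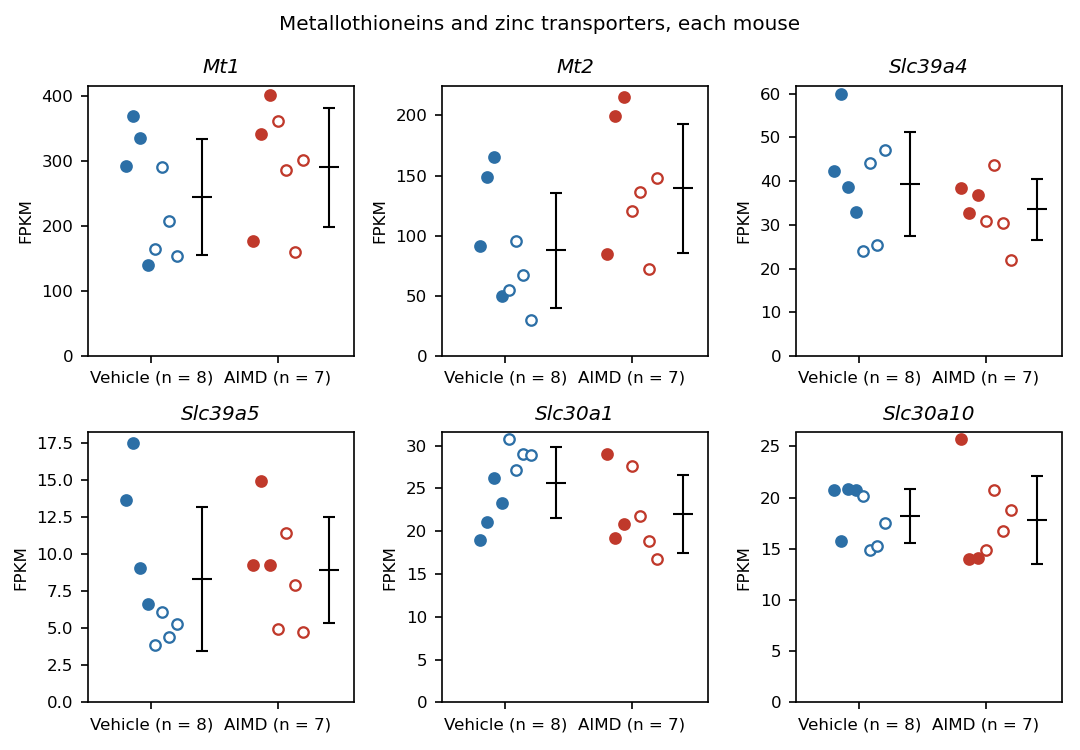
FPKM of the 6 genes in each mouse (points, blue for vehicle-treated and red for AIMD), with the mean and SD of each group as bars and all vertical axes starting at 0. Filled points are mice below 0 and open points mice above 0 on an axis made from circadian clock genes. In each of the 6 panels the groups overlap.

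Mt1 was the most abundant of the set per length. It lies on chromosome 8 from 94179082 to 94180327 on the plus strand of GRCm38, as annotated in GENCODE M21. Its FPKM in AIMD mice ranged from 160.2 through a median of 301.5 to 401.9, and in vehicle-treated mice from 139.8 through 248.9 to 368.8. The groups shared most of their range, with 1 AIMD mouse above the highest vehicle-treated mouse and 2 vehicle-treated mice below the lowest AIMD mouse. Means were 289.8 ± 91.4 (SD, n = 7) and 243.9 ± 88.9 (SD, n = 8), for a log2 fold change of 0.26 (SE 0.25, 95% interval -0.27 to 0.80, limma adjusted p = 0.435), which in linear terms runs from 0.831-fold to 1.74-fold.

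Mt2, the near neighbour of Mt1, lies 5513 bases before it on the same strand, from 94172664 to 94173568. Its FPKM in AIMD mice was 72.1 at the lowest, 136 at the median and 215 at the highest, and in vehicle-treated mice 30.1, 79.4 and 165. Of the vehicle-treated mice, 4 were below the lowest AIMD mouse, and 2 AIMD mice were above the highest vehicle-treated mouse. The means were 139 ± 53.7 (SD, n = 7) and 87.8 ± 47.8 (SD, n = 8), a ratio of 1.59, and the fitted log2 fold change was 0.76 (SE 0.33, 95% interval 0.07 to 1.46). This interval lay above 0 and the unadjusted p from limma was 0.0339, but the adjusted p of 0.0808 missed the threshold. An exact permutation test of the log2 values gave p = 0.0625.

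The Mt2 value sat close to the threshold. The adjusted p from limma was 0.0354 with quantile normalization, 0.0349 with scaling by total FPKM outside chromosome M, and 0.0433 with an axis of clock genes, described further on, as a covariate. In this last fit Mt2 was the 1 member of 6 that passed, beside 42.9% of all tested genes. Without vehicle replicate 8, the mouse with the lowest Mt2, the log2 fold change was 0.57 and the adjusted p from limma 0.135. Without vehicle replicate 2 or 3, the adjusted p was 0.0388 and 0.0340. In addition, 45.8% of the 50-base windows of Mt2 transcripts also lie in Gm45774, a gene annotated on the opposite strand, and while the libraries were prepared with a stranded kit, the strand setting used for counting is not given in the sources used here. The part of such reads in the Mt2 values was not tested.

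Mt1 and Mt2 rose and fell together from mouse to mouse. In vehicle-treated mice, Pearson's r of their log2 values was 0.93 (exact permutation p = 0.000868, adjusted 0.0260 over 30 relations among the 6 genes) and Spearman's rho 0.93 (exact permutation p = 0.00223, adjusted 0.0335). The r was 0.94 without the 2 mice farthest from the median of Mt1. In AIMD mice r was 0.90 (exact permutation p = 0.00972, adjusted 0.0972) and rho 0.79 (exact permutation p = 0.0480, adjusted 0.431). Without the 2 farthest AIMD mice r was 0.52, and the few mice left cannot show how far the relation depends on those 2. Reads of both genes share the depth of their library, and each side of the clock axis described further on holds too few mice for an r of its own.

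The balance of the pair also differed between the groups. The log2 ratio of Mt1 to Mt2 was 1.08 ± 0.25 (SD, n = 7) in AIMD mice, from 0.78 to 1.58, and 1.57 ± 0.37 (SD, n = 8) in vehicle-treated mice, from 1.02 to 2.33. The ratio was lower in AIMD mice by a log2 difference of -0.50 (two-sided exact permutation test, p = 0.00979, adjusted 0.0196 over the 2 ratios tested). The groups still overlapped. The ratio is made from the same values as the log2 fold changes of Mt1 (0.26) and Mt2 (0.76), so it is not separate from the Mt2 difference. The part of reads shared with Gm45774 in the ratio, and in the read share that follows, was not tested.

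Counted as reads, Mt2 took 32.8% ± 3.74 (SD, n = 7) of the reads of the pair in AIMD mice, from 25.6% to 37.5%, and 25.9% ± 4.76 (SD, n = 8) in vehicle-treated mice, from 16.8% to 33.7% (exact permutation p = 0.00886). This share was chosen after the values were seen, and its reads rest on transcript lengths inferred from the FPKM, since the annotated lengths of both genes did not give whole reads. The lowest share, 16.8%, was that of vehicle replicate 8, and 4 vehicle-treated mice lay below the lowest AIMD mouse. When single mice were left out, the log2 difference stayed between -0.58 and -0.39. It was -0.39 without vehicle replicate 8 (exact permutation p = 0.0169).

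**Figure D2:**
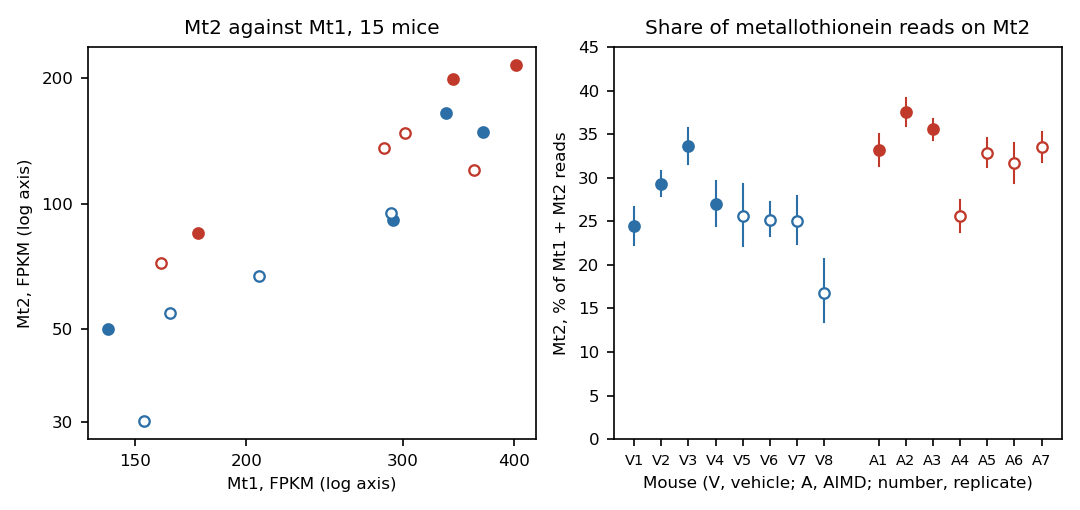
Left, FPKM of Mt2 against Mt1 on log axes, 1 point per mouse (blue vehicle-treated, red AIMD, filled below and open above 0 on the clock axis). Right, the percentage of Mt1 and Mt2 reads that fell on Mt2 in each mouse, with exact 95% binomial intervals that cover counting error only. The AIMD points lie at 25.6% to 37.5% and the vehicle-treated points at 16.8% to 33.7%.

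Slc39a4 encodes ZIP4, the zinc importer of the apical face of enterocytes. The gene spans chromosome 15 from 76612383 to 76617384 on the minus strand. Its FPKM was 22.0, 32.8 and 43.8 in AIMD mice (lowest, median, highest) and 24.1, 40.5 and 59.9 in vehicle-treated mice. Only 1 AIMD mouse was below all vehicle-treated mice, and the means of 33.6 ± 6.96 (SD, n = 7) and 39.3 ± 11.9 (SD, n = 8) were closer than the SD of either group. This gave a log2 fold change of -0.19 (SE 0.19, 95% interval -0.59 to 0.21, limma adjusted p = 0.450).

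Slc39a5 encodes ZIP5, a zinc importer of the basolateral face. The gene spans chromosome 10 from 128395931 to 128401229 on the minus strand and was the least abundant of the set per length. The FPKM ran from 4.73 through 9.25 to 14.9 in AIMD mice and from 3.85 through 6.38 to 17.5 in vehicle-treated mice. The range of the AIMD mice lay inside that of the vehicle-treated mice. With means of 8.92 ± 3.58 (SD, n = 7) and 8.31 ± 4.86 (SD, n = 8), limma estimated a log2 fold change of 0.17 (SE 0.30, 95% interval -0.46 to 0.81, adjusted p = 0.683).

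Slc30a1 encodes ZnT1, the zinc exporter of the plasma membrane. The gene spans, on the plus strand of chromosome 1, bases 191906767 to 191913247. FPKM values of 16.8, 20.8 and 29.0 in AIMD mice stood beside 19.0, 26.7 and 30.8 in vehicle-treated mice (lowest, median, highest). The lower AIMD median was accompanied by 2 AIMD mice below every vehicle-treated mouse. The means were 22.0 ± 4.60 (SD, n = 7) and 25.7 ± 4.18 (SD, n = 8), and the log2 fold change was -0.22 (SE 0.14, 95% interval -0.52 to 0.07, limma adjusted p = 0.219).

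Slc30a10 belongs to the ZnT family by sequence but is known as a manganese exporter. The gene spans, on the plus strand of chromosome 1, bases 185454848 to 185468762. The lowest, median and highest FPKM were 14.0, 16.7 and 25.7 in AIMD mice, and 14.9, 18.8 and 20.8 in vehicle-treated mice. The vehicle-treated mice were inside the range of the AIMD mice. The means, 17.8 ± 4.29 (SD, n = 7) and 18.2 ± 2.65 (SD, n = 8), gave a log2 fold change of -0.05 (SE 0.14, 95% interval -0.34 to 0.25, limma adjusted p = 0.811). Its sign turned to 0.03 with scaling by total FPKM outside chromosome M. Of its 50-base windows, 8.36% lie in Gm2061, a gene on the opposite strand.

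Set side by side per length, the order of mean FPKM over all mice was Mt1, Mt2, Slc39a4, Slc30a1, Slc30a10 and Slc39a5. Mt1 was above Mt2 in 15 of 15 mice, and Mt2 above Slc39a4 in 14 of 15. Each of the next 3 steps held in 13 of 15 mice. The order was read from these same mice, so the counts are a description. Over all 15 mice the span was widest in Mt2, whose highest FPKM was 7.15 times the lowest, followed by Slc39a5 at 4.54 times. It was narrowest in Slc30a1 and Slc30a10, each at 1.84 times. The lowest Mt2 was that of vehicle replicate 8 (30.1 FPKM, beside 50.1 in the next mouse). Without that mouse Slc39a5, not Mt2, had the widest span. The ratio of the importer Slc39a4 to the exporter Slc30a1 did not pass a test of its difference, at log2 values of 0.56 ± 0.61 (SD, n = 8) in vehicle-treated and 0.59 ± 0.29 (SD, n = 7) in AIMD mice (exact permutation p = 0.902).

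The mice also fell into 2 sets by their clock genes. The time of sacrifice was a factor of the study but the labels do not give it for each mouse. The first principal component of 15 circadian clock genes, centred within the groups, held 91.5% of their variance and put 3 AIMD and 4 vehicle-treated mice below 0, and 4 and 4 above 0. Of all tested genes, 23.1% had a coefficient on this axis that passed the threshold.

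Slc39a5 was the 1 member of 6 that did. Its mean FPKM was 11.2 below and 7.24 above 0 in AIMD mice, and 11.7 and 4.91 in vehicle-treated mice. All 4 vehicle-treated mice above 0 were lower than the 4 below 0. Its coefficient was -0.16 log2 per unit of the axis (SE 0.03, limma adjusted p = 0.00591). The other 5 missed the threshold, the nearest being Mt2 (adjusted p = 0.0869 from limma), whose means were 167 below and 119 above 0 in AIMD mice, and 114 and 61.8 in vehicle-treated mice.

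Slc30a1 had means of 22.4 below and 29.0 above 0 in vehicle-treated mice, and 23.0 and 21.3 in AIMD mice. All 4 vehicle-treated mice above 0 were higher than the 4 below 0, the opposite of Slc39a5, so that these 2 genes ran in opposite order among vehicle-treated mice. Since the mice form separate sets on both genes and each set holds 4, no correlation is given for them. The treatment difference above 0 minus that below 0 was -0.49 on the log2 scale (SE 0.25, limma adjusted p = 0.993). Among all 11971 genes, 0 interactions with the side of the axis passed in limma, and 534 had an unadjusted p under 0.05. These 2 tests of the axis were chosen after the data were seen. The Mt1 to Mt2 ratio was lower in AIMD mice on both sides, by -0.58 above 0 (4 against 4 mice, exact permutation p = 0.0571) and by -0.46 below 0 (3 against 4 mice, exact permutation p = 0.0857, where the smallest possible p is 0.0286).

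**Figure D3:**
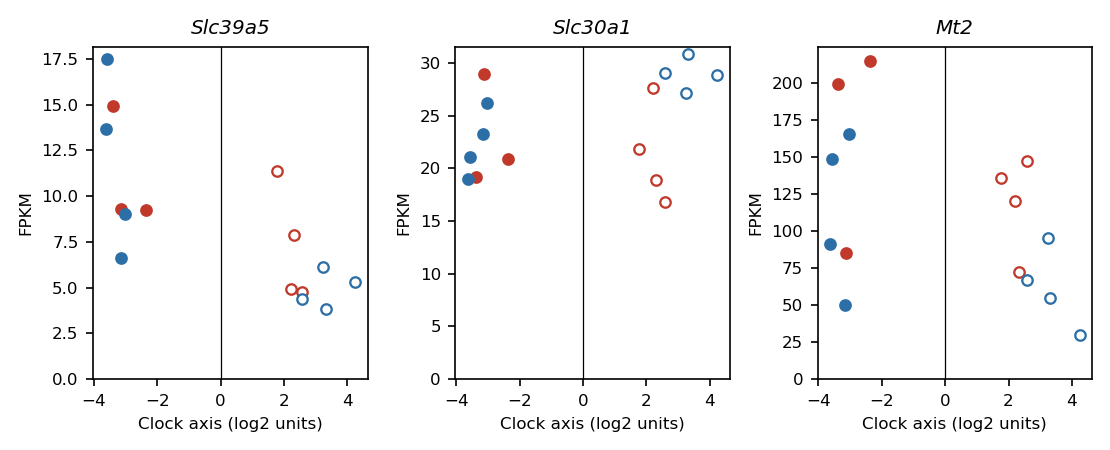
FPKM of Slc39a5, Slc30a1 and Mt2 in each mouse against its position on the axis of clock genes in log2 units (red AIMD, blue vehicle-treated, filled below 0 and open above 0). The mean of Slc39a5 is higher to the left of 0 in both groups, 11.2 against 7.24 in AIMD mice and 11.7 against 4.91 in vehicle-treated mice.

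For each of the 6 genes, the genes with the most similar pattern over the 15 mice were ranked by Pearson's r of log2 values centred within the groups, among 9766 genes with a mean FPKM of at least 1. For Mt1 the nearest was Mt2 (r = 0.91), followed by Comtd1 (0.85) and Syngr2 (0.83). Those of Mt2 after Mt1 were Comtd1 (0.90) and Hddc3 (0.87). Slc39a4 was nearest to Cideb (0.96) and Pef1 (0.96), and Slc39a5 to Uqcrc1 (0.99), Park7 (0.98) and Coro1b (0.98). The exporters had looser neighbours, with Pcgf3 (0.84) first for Slc30a1 and Wbp4 (0.73) first for Slc30a10. These r describe the order of genes, and the points share depth and tissue makeup.

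Beyond the 6 genes, 20 other zinc transporters are in the table, of which 14 passed the filter. AIMD mice had 1 of them higher and 3 lower, which is 28.6% of the 14 beside the 36.0% over all tested genes. The other 10 did not pass the threshold. The median log2 fold change of the 14 was -0.08.

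Slc30a9, a ZnT family member linked to mitochondrial zinc, was the one that rose. Its FPKM was 4.34, 4.87 and 5.34 in AIMD mice (lowest, median, highest) and 2.90, 3.28 and 3.57 in vehicle-treated mice. The groups did not overlap, as in 8.56% of all tested genes. Its log2 fold change was 0.49 (SE 0.09, limma adjusted p = 0.000397), and it was between 0.47 and 0.51 with each mouse left out.

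Slc39a11, a ZIP family member, fell. The FPKM was 14.4, 18.2 and 19.7 in AIMD mice and 21.3, 29.0 and 33.0 in vehicle-treated mice, again with no overlap. Its log2 fold change was -0.69 (SE 0.12, limma adjusted p = 0.000274), and -0.75 without vehicle replicate 8.

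Slc39a13, an importer known from connective tissue, was near the lower end of what these libraries measure, with 10 to 55 reads per mouse. Its FPKM was 0.244, 0.494 and 0.589 in AIMD mice and 0.591, 0.858 and 2.23 in vehicle-treated mice, and the 2 groups met without overlapping. It fell by 0.63 on the log2 scale (SE 0.17, limma adjusted p = 0.00704), and the estimate was -0.96 with a pseudocount of 0.1 and -1.04 with limma voom on recovered reads. Its highest value, 2.23, was in vehicle replicate 8, the mouse with the most smooth muscle and fibroblast marker RNA, and without that mouse the estimate was -0.51 (limma adjusted p = 0.00344). The part of those markers in the result was not tested.

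Slc39a14, an importer of zinc, iron and manganese, had an FPKM of 3.44, 4.07 and 4.68 in AIMD mice and 3.69, 4.95 and 7.42 in vehicle-treated mice. The groups overlapped, with 2 AIMD mice below all vehicle-treated mice. On the log2 scale it fell by 0.36 (SE 0.14, limma adjusted p = 0.0461). This call was lost when any 1 of 10 mice was left out, with an adjusted p of up to 0.0873 from limma, and with scaling by total FPKM outside chromosome M (adjusted p = 0.152).

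**Figure D4:**
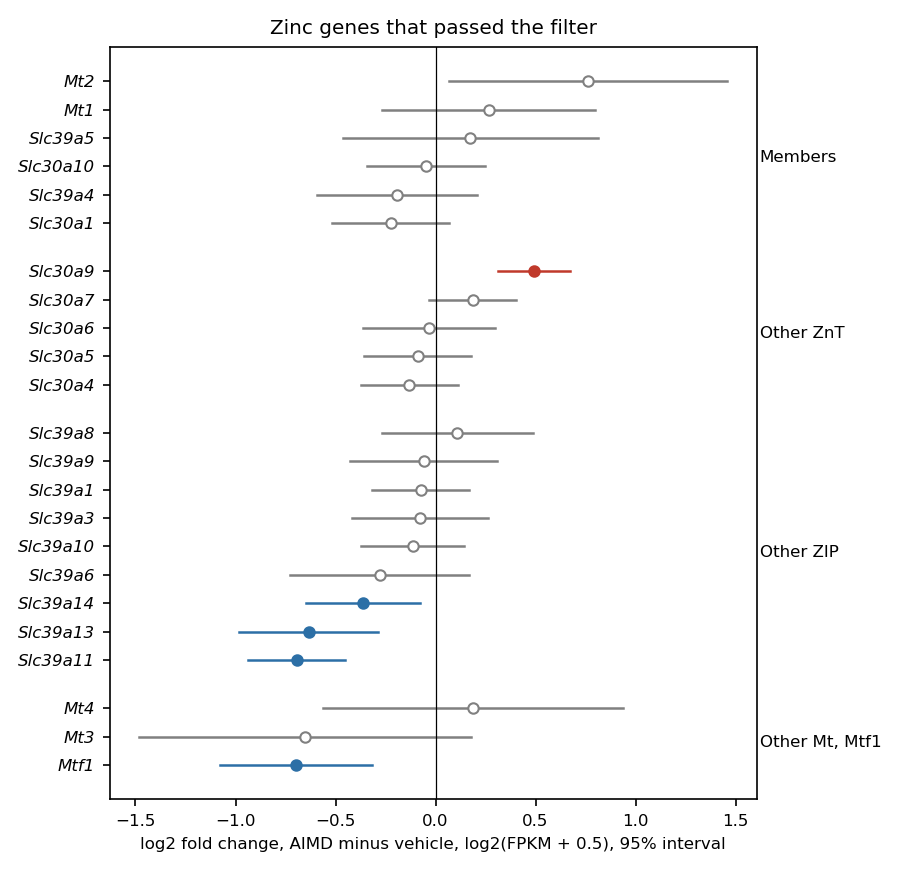
Log2 fold change (AIMD minus vehicle-treated, 7 against 8 mice) of the zinc genes that passed the filter, with 95% intervals from limma as lines. Filled points passed the adjusted threshold (red higher, blue lower) and open points did not. The 6 genes examined here are open, while Slc30a9 is higher and Slc39a11, Slc39a13, Slc39a14 and Mtf1 are lower.

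The 10 other zinc transporters that did not pass ranged from low to high FPKM. Slc39a10 had the lowest means, 0.524 in AIMD and 0.601 in vehicle-treated mice. Slc30a4 had a mean FPKM of 40.8 in AIMD and 44.6 in vehicle-treated mice, Slc39a1 37.8 and 39.8, and Slc39a9 39.0 and 40.9. The log2 fold changes of these last 3 were between -0.13 and -0.06. Slc39a7, a zinc transporter of the endoplasmic reticulum, was not tested, with at most 6 reads per mouse, and 74.5% of its 50-base windows are shared with the overlapping gene Gm20427.

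Mtf1, the zinc-sensing transcription factor, fell. Its FPKM was 1.34, 2.22 and 3.47 in AIMD mice and 2.47, 3.42 and 6.14 in vehicle-treated mice, and 6 of 7 AIMD mice were below every vehicle-treated mouse. The log2 fold change was -0.70 (SE 0.18, limma adjusted p = 0.00653), from -0.80 to -0.61 with each mouse left out. Of its 50-base windows, 7.55% lie in 1110065P20Rik on the opposite strand. The 2 other metallothioneins of the cluster did not pass. Mt4 had means of 5.83 and 6.02, and Mt3 stayed low, with at most 30 reads per mouse (limma adjusted p = 0.707 and 0.208).

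Copper genes were read next because metallothioneins also bind copper. Of 10 tested of 12, 3 were higher and 2 lower, 50% of those tested beside 36.0% of all tested genes. The higher ones were Slc31a1, the high-affinity copper importer (log2 fold change 0.47, limma adjusted p = 0.00372), its relative Slc31a2 (0.41) and Sco1 (0.65), an assembly factor of cytochrome c oxidase. The lower ones were Mtf1 and Cox17, a copper chaperone of the same enzyme (-1.85). Vehicle-treated mice had a mean Cox17 FPKM of 34.6 ± 14.2 (SD, n = 8) and AIMD mice one of 9.46 ± 5.12 (SD, n = 7), with 6 of 7 AIMD mice below every vehicle-treated mouse. Of 8 manganese genes tested, Slc39a14 was lower and the other 7, with Slc30a10 among them, did not pass.

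Of 9 tested glucocorticoid-responsive genes in a list of 10, 4 were higher and 1 lower in AIMD mice, 55.6% of those tested beside 36.0% of all tested genes. Klf9 (log2 fold change 1.15), Errfi1 (0.73), Nr3c1, the glucocorticoid receptor (0.57), and Fkbp5 (0.49) were higher, while Tsc22d3, which encodes the glucocorticoid-induced leucine zipper, was lower (-0.71). Genes of the list thus moved in both directions. Fkbp5 lost its call when any 1 of 11 mice was left out, and Nr3c1 with any 1 of 4. Of 8 tested secreted zinc enzymes in a list of 10, the meprin genes Mep1b (1.28) and Mep1a (0.37) were higher, 25% of those tested, again beside 36.0%, and the other 6 did not pass. Mep1b had no overlap between the groups, while Mep1a lost its call when any 1 of 9 mice was left out.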

How the data were processed

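Cecal poly-A RNA of 7 AIMD and 8 vehicle-treated mice was sequenced by the authors, who aligned 50-base reads with STAR (GRCm38), ran featureCounts for the count of each gene and deposited FPKM values for each mouse. For all 24279 genes above 0 the deposited FPKM gave whole reads within 0.01 read, for 67.6% with the GENCODE M21 exon length and for the rest (Mt1, Mt2, Slc39a4 and Slc39a5 among them) with another length inferred from the values, and so the depth of each mouse (highest 4.14 times the lowest). Depth limits the precision of low genes. Samples were grouped by their labels. After division by size factors (median of ratios), log2(FPKM + 0.5) was tested two-sided in limma 3.58.1 (R 4.3.3) with a trend, where 7 or more mice reached an FPKM of 0.5, and with a Benjamini-Hochberg threshold of 0.05. The size factors lay between 1.0101 and 1.0104, so this division left the deposited values nearly unchanged relative to each other. An alternative without it, counted among the other scalings, nearly repeated the main fit. The change of low genes is understated on the log2(FPKM + 0.5) scale. The p-values measure the spread between mice. Exact permutation tests of single values used all 6435 splits into 7 and 8 mice (smallest p 0.000155). The study's own DESeq2 model with time of sacrifice could not be repeated, since the labels do not give that time.

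The genes and lists were chosen with earlier results of these data known. Named genes were the 6 members, the listed genes that passed the threshold, and the 3 most similar genes of each member. Positions follow GENCODE M21. The methods were tested on simulated data. Alternatives were other scalings, pseudocounts and filters, an exact rank-sum test, limma voom on recovered reads, a replicate block, the clock axis, and each mouse left out. Python 3.11.15, numpy 2.4.6, pandas 2.3.3 and matplotlib 3.10.9 were used. Liver, serum and stool measurements were not analysed here.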

Additional observations from a re-analysis of the deposited data

Results flagged for a closer look

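In 48 groups checked for a mouse far from the rest of its group, 2 had one, where chance gives about 1 in 20 (2.4 of 48). Tsc22d3 in AIMD replicate 4 was 41.9 FPKM, beside a median of 24.6 in the 7 AIMD mice. Slc39a13 in vehicle replicate 8 was 2.23 FPKM, beside a median of 0.858 in the 8 vehicle-treated mice. That mouse also had the highest smooth muscle sum, at 3006 FPKM, and the part of that tissue in the value was not tested. No member had such a mouse in either group.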

How the results depend on the processing

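Over the alternatives tried, 306 values for the 6 genes, their 2 ratios and the counts of called genes stayed as in the main fit. For a gene or ratio this means the same direction and side of the threshold, and for a count a change within a limit. Of the rest, 11 changed sign, 6 rose past a limit and 8 fell under one. Among values for the other listed genes and lists, 773 stayed, 94 fell under a limit and 2 rose past one. A further 1, the share of promoter windows with a core, moved. The log2 fold change of Mt2 passed the threshold with quantile normalization (0.86), with scaling by total FPKM outside chromosome M (0.84) and with the clock axis as covariate (0.76), and with each mouse left out it ranged from 0.57 to 0.92. Slc30a10 was close to 0 and turned to 0.025 with this scaling by total FPKM and to 0.066 among mice above 0 on the clock axis, with a range of -0.14 to 0.0028 over single mice left out. Among mice below 0 on that axis, Slc39a5 was -0.013 and Slc30a1 0.027. The log2 ratio of Mt1 to Mt2 was -0.58 above and -0.46 below 0, in 4 against 4 and 3 against 4 mice, with exact p of 0.0571 and 0.0857 where the smallest possible is 0.0286. That of Slc39a4 to Slc30a1 differed by -0.26 below 0 and by 0.34 above 0, and by -0.10 to 0.16 over single mice left out. In these smaller sets limma called 1343 genes higher and 1134 lower above 0, and 1035 and 848 below 0, with 1 other zinc transporter lower on each side. Without a filter, Slc39a7 joined Slc30a9 as the 2 other zinc transporters called higher, with Slc39a7 at no more than 6 reads per mouse. Scaling by total FPKM outside chromosome M moved the median of all genes to 0.07 and the share of calls that were higher from 53.8% to 62.4%. A looser core, TGCNCNC, was in 51.0% of promoter windows. The cause of these changes was not tested, apart from the fewer mice and genes named.

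Replicate numbers name different mice, and the deviations of mice with the same number correlated from -0.35 to 0.43, so the numbers are not taken as pairs. They do follow the clock axis in part. In both groups replicates 1 to 3 lay below 0 and replicates 5 to 7 above 0, while replicate 4 was above 0 in AIMD and below 0 in vehicle-treated mice. The part of this axis in the effect of a block was not tested. A replicate block over 7 numbers has no partner for vehicle replicate 8 and leaves that mouse out. With the block, limma called 4646 genes, beside 4638 without the block and without that mouse, and 4315 over all mice. On these 14 mice the estimates of Mt2 (0.57) and of the Mt1 to Mt2 ratio (-0.39) are the same with and without the block, and the adjusted p of Mt2 from limma was 0.0535 with it and 0.135 without it. Slc39a14 had an adjusted p of 0.0530 with the block and 0.0469 without it.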

Other observations

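Gm2061, an annotated gene that overlaps Slc30a10 on the opposite strand, was chosen after its values were seen. Vehicle-treated mice averaged 4.37 ± 0.726 FPKM (SD, n = 8) and AIMD mice 10.6 ± 1.57 (SD, n = 7), and the 2 groups did not overlap. The log2 fold change was 1.19 (SE 0.12, limma adjusted p = 2.71e-06), while that of Slc30a10 was -0.05 (SE 0.14). The share of 50-base windows of Slc30a10 transcripts that also lie in Gm2061 was 8.36%, and although the library kit was stranded, whether strand was used in counting is not given in the sources used here.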
